A study of Homo sapiens with 16 samples.

Results

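The genes described here are the splicing factor genes of the heterogeneous nuclear ribonucleoprotein (hnRNP) family, the serine and arginine rich (SR) family and the core of the small nuclear ribonucleoproteins (snRNPs). They were taken by name: a row of the gene table is a member if any of its names starts with HNRNP, is HNRPDL, or starts with SRSF and a digit or with SNRP and a further letter. This found 49 of 27043 named rows. Of these, 20 were hnRNP genes, 12 SR genes and 12 core snRNP genes. The 5 others were kept apart: the antisense row HNRNPU-AS1, the pseudogene rows HNRNPA3P1, HNRNPKP3 and SNRPD2P2, and a joint row of ECH1 and HNRNPL. The spelling of the rule leaves out SNRNP70 and its relatives, and the splicing genes under other names.

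The cells are SK-N-AS, an established human neuroblastoma line. All 16 labelled samples are the same untreated culture condition, RPMI1640 medium with 10% serum, and cells were placed 1 to a well in plates of 384 wells and measured with MARS-seq, which barcodes and reads the 3' ends of transcripts. There is no treated, mutated or control group. The column names do not show which sample a cell came from, so the 603 cells are 1 pooled sample without replicates, and no test between groups was possible.

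Introns are cut from nascent RNA by the spliceosome, which is built from snRNPs. The U1, U2, U4 and U5 particles each hold a ring of Sm proteins around their RNA, U6 holds a ring of the related LSm proteins, and each particle has further proteins of its own. SR proteins bind exonic sequences and help recruit the spliceosome, while hnRNP proteins coat nascent transcripts and often oppose that recruitment. Members of all 3 classes are abundant in dividing cells.

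The table held 1537576 counts, with between 1000 and 42404 per cell (median 2106). The deepest cell held 2.76% of all counts. The columns carry 364 distinct barcodes, of which 239 appear 2 times, once among the first 316 columns and once among the last 287. These stretches are called barcode set 1 and barcode set 2, are not groups of the study, and were used only to give values within each. Neuroblastoma markers were present. Of 11 noradrenergic markers 10 had a count and 6 had at least 50 (HAND2 at 273 CPM, DBH at 0), with a sum of 1372 CPM. Of 10 mesenchymal markers 10 had a count and 8 had at least 50 (VIM at 5649 CPM), with a sum of 6969 CPM. Markers of other cell types were near 0, with 5 of 5 erythroid, 5 of 6 Schwann, 4 of 6 endothelial and 4 of 7 leukocyte markers at 0. The summed leukocyte level of 74.1 CPM was mostly CD68 at 54.6 CPM. Of these lists only the leukocyte list had a marker with at least 50 counts.

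Levels are pooled counts of the 603 cells, given as CPM (a share of the total on the usual fixed scale) with exact 95% Poisson intervals. They were not divided by gene length, because a 3' method reads the end of a transcript. Every interval describes the error of counting alone and leaves out variation among cells, plates and cultures. The 3 classes together took 1.41% of all counts. The hnRNP genes summed to 6577 CPM (6449 to 6706), the core snRNP genes to 5905 CPM (5785 to 6028) and the SR genes to 1653 CPM (1589 to 1718). The median log2(CPM + 1) was 8.63 for core snRNP genes, 7.90 for hnRNP genes and 6.20 for SR genes, beside 4.00 over all 13641 rows with a count. Over 13 runs of up to 50 columns in file order, hnRNP sums ran from 5560 to 7068 CPM, SR sums from 1392 to 2133 CPM and core snRNP sums from 5347 to 6455 CPM. The SR sum was 1573 CPM in barcode set 1 and 1736 CPM in set 2, both outside the interval of the pooled value.

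**Figure D1:**
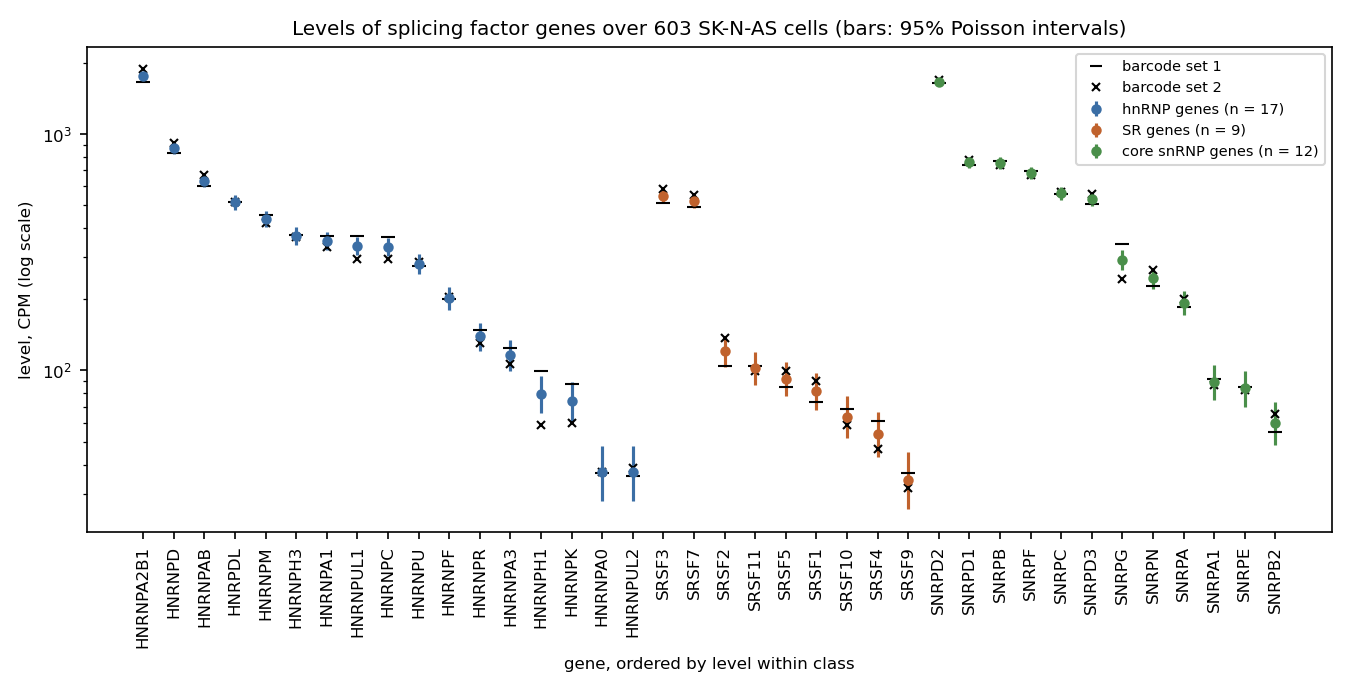
Level of the 38 members of the 3 classes with at least 50 counts, in CPM on a log axis, with genes ordered by level within each class. Filled points are the pooled level over 603 cells with 95% Poisson intervals, and dashes and crosses are the levels within barcode sets 1 and 2. SRSF3 and SRSF7 stand above the other SR genes, and HNRNPA2B1 and SNRPD2 lead their classes.

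Among the hnRNP genes, 17 of 20 had at least 50 counts. HNRNPA2B1, which binds mRNA and takes part in splicing and transport, had 1761 CPM (1696 to 1829) and a count in 91.4% of cells. That was 26.8% of all hnRNP counts. The A/B-type relatives that bind AU-rich RNA followed, with HNRNPD (AUF1) at 869 CPM (823 to 917), HNRNPAB at 634 CPM (595 to 675) and HNRPDL at 514 CPM (479 to 551). HNRNPM, a splicing regulator, had 437 CPM (405 to 471), and HNRNPH3, of the G-run binding H/F group, had 370 CPM (340 to 402). The intervals of HNRNPH3, HNRNPA1 (352 CPM), HNRNPUL1 (334 CPM) and HNRNPC (332 CPM) overlapped, so these neighbours are not ordered by their counts. HNRNPU, a scaffold-attachment protein, had 282 CPM, HNRNPF 202 CPM, HNRNPR 139 CPM and HNRNPA3 116 CPM. HNRNPH1 and HNRNPK, the latter a binder of C-rich RNA, had 79.3 and 74.1 CPM, and HNRNPA0 and HNRNPUL2 had 37.1 CPM each. HNRNPH2 had 8 counts, HNRNPA1L2 had 4 and HNRNPCL1 had 0. A count of 0 is given a 1-sided limit of 3 counts, here 1.95 CPM, and the upper end of the interval used for the other levels would be 2.40 CPM.

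The levels of some hnRNP genes carry a naming limit. RefSeq lists 75 pseudogenes named after HNRNPA1, 17 after HNRNPA3 and 9 after HNRNPC, and whether reads were shared with such copies was not tested. Some levels also differed between barcode sets, with both values outside the pooled interval. These were HNRNPA2B1 (1650 CPM in set 1 and 1878 in set 2), HNRNPUL1 (370 and 297), HNRNPC (366 and 295) and HNRNPH1 (99.2 and 58.6), and HNRNPK was outside in set 2 only (87.8 and 59.9). The joint row of ECH1, a mitochondrial enzyme of fatty acid breakdown, and HNRNPL had 246 CPM and cannot be attributed to either gene. HNRNPH1, HNRNPH2 and HNRNPM also share their rows with another transcript name.

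Promoter sequences are shown for HNRNPA2B1, which leads its class, and for HNRNPAB, HNRPDL and SRSF3, which are among the members with higher levels in cells rich in G2/M transcripts. Each is the 250 bases before the RefSeq start in GRCh38.p14, and capitals mark CCAAT or its reverse ATTGG (the NF-Y box), TTCCCGC or its reverse GCGGGAA (an E2F-type site) and CACGTG (an E-box).
HNRNPA2B1, chr7:26200747-26200996, minus strand: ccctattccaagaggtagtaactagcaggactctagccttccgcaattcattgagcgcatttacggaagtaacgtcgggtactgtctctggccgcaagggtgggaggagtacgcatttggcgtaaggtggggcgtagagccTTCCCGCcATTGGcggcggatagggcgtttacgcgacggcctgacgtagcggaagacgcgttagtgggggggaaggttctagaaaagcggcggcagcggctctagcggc
HNRNPAB, chr5:178204283-178204532, plus strand: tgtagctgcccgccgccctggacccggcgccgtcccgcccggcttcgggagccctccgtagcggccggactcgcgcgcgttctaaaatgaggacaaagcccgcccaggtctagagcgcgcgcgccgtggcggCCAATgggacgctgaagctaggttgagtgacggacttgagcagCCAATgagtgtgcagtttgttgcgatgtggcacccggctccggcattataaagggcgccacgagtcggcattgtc
HNRPDL (now HNRNPDL), chr4:82430226-82430475, minus strand, the first of 2 starts listed: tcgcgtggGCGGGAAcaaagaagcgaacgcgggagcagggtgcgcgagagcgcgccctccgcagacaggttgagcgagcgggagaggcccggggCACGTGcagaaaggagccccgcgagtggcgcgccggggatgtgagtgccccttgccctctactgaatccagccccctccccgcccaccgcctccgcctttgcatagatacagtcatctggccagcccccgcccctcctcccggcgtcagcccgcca
SRSF3, chr6:36594112-36594361, plus strand: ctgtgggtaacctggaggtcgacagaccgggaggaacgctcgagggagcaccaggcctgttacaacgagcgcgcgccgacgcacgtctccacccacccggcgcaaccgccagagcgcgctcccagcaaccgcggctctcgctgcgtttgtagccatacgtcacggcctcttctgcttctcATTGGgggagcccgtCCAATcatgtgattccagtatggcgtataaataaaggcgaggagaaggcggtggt

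Of the 38 members with at least 50 counts, 35 had an upstream window in the RefSeq table, and for genes with several starts only the first listed window was counted. Searched on both strands, CCAAT occurred in 15 of 35 (42.9%), beside 34.5% of 15843 protein-coding genes. TTCCCGC occurred in 6 (17.1%, beside 7.44%) and CACGTG in 5 (14.3%, beside 7.84%). TTTGAA, the core of the cell cycle homology region, occurred in 0, beside 10.8%, and the E2F-type site TTGGCGC in 0, beside 3.51%. Over all listed windows TTTGAA occurred in 3 members (beside 14.2% of genes), TTGGCGC in 1 (4.27%), TTCCCGC in 9 (9.10%), CCAAT in 19 (40.2%) and CACGTG in 5 (9.73%). These are matches of letters in this window only, and no binding was measured.

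Of the 12 SR genes, 9 had at least 50 counts. SRSF3, a small SR protein that links splicing to mRNA export, had 545 CPM (509 to 583) and a count in 66.5% of cells. SRSF7, its close relative with a zinc knuckle, had 521 CPM (486 to 558) and a count in 61.2% of cells. Their intervals overlapped, and SRSF3 alone held 33.0% of all SR counts. The next, SRSF2 at 120 CPM (104 to 139), lay well below both, and its row is shared with the microRNA name MIR636. SRSF11 had 102 CPM, SRSF5 92.4 CPM, SRSF1, the founding member of the family, 81.9 CPM, SRSF10 63.7 CPM, SRSF4 54.0 CPM and SRSF9 34.5 CPM. SRSF8 had 36 counts, SRSF6 had 17 and SRSF12 had 5.

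All 12 core snRNP genes had at least 50 counts. The 8 genes of Sm ring proteins summed to 5003 CPM, and the 4 genes of U1- and U2-specific proteins to 902 CPM. Transcripts of the Sm ring genes ranged over a wide span. SNRPD2 had 1660 CPM (1597 to 1726) and a count in 92.5% of cells, which was 28.1% of the class. SNRPD1 had 756 CPM, SNRPB 750 CPM, SNRPF 684 CPM and SNRPD3 530 CPM. SNRPG had 293 CPM, SNRPN 245 CPM and SNRPE 83.9 CPM (70.0 to 99.7). SNRPN encodes a neuronal and imprinted relative of SNRPB. RefSeq names 20 pseudogenes after SNRPG, 11 after SNRPE and 20 after the U1 protein gene SNRPC. The U1 protein genes SNRPC and SNRPA had 560 and 193 CPM, and the U2 protein genes SNRPA1 and SNRPB2 had 89.1 and 59.8 CPM. SNRPG was the core snRNP gene that differed between barcode sets beyond its pooled interval (267 to 322 CPM), at 342 CPM in set 1 and 242 CPM in set 2.

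To compare cells, each was thinned at random to 1100 counts, which left out 43 cells (7.13%) and kept 560. At this depth a cell held a median of 15 member counts (3 to 33). For hnRNP genes the median was 7 (0 to 20), for core snRNP genes 6 (0 to 16) and for SR genes 2 (0 to 8), with 92 cells at 0 SR counts. The variance over the mean (Fano factor, near 1 for pure counting noise) was 1.45 for the hnRNP sum, 1.12 for the core snRNP sum and 1.09 for the SR sum. For single members with a thinned mean of at least 0.1, the median Fano factor over 28 genes was 1.05, beside 1.09 over all 2051 such rows. The order turned in the other draws, with 1.13 and 1.10 for members beside 1.09 for all rows in each, so members and other rows were not told apart. Only SNRPD3, at 1.42, lay above the 95th percentile of all rows, 1.39, in this draw.

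Cells were then grouped by how many G2/M transcripts they held at equal depth. The list has 56 genes of late S phase, G2 and mitosis, none of them a member. Of its 13868 counts in all cells, HN1 held 2284, HMGB2 2236 and TUBB4B 1617. An alternative score left out HMGB2 and TUBB4B but kept HN1. The 186 cells with the highest sums (all at 11 or more, called G2/M-rich) were set against the 186 with the lowest (all at 5 or fewer, G2/M-poor). Ties were broken at random, which took 6 of the 24 cells at 11 and 21 of the 36 at 5. These groups are ranges of a score, not cell types. Their median totals before thinning were 2476.5 and 2247.0 counts. Group levels in CPM and their ratios use full counts, and values at equal depth use thinned counts. Thinning is random and decides which cells fall in which group, so it was drawn 3 times. Values are from 1 draw unless the others are named.

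The hnRNP genes summed to 7274 CPM in G2/M-rich and 5694 CPM in G2/M-poor cells, a log2 ratio of 0.35 (0.28 to 0.43). The SR genes had 1835 against 1410 CPM, a log2 ratio of 0.38 (0.24 to 0.53). The core snRNP genes had 6065 against 5715 CPM, a log2 ratio of 0.09 (0.01 to 0.16). Within barcode sets 1 and 2 the hnRNP ratio was 0.37 and 0.34 and the SR ratio 0.37 and 0.39, while the core snRNP ratio was 0.17 and -0.00. The median cell held 8 against 6 hnRNP counts, 2 against 1 SR counts and 6 against 6 core snRNP counts at equal depth. Without SRSF3 the SR ratio was 0.24 (0.06 to 0.42), and without SNRPD2 the core snRNP ratio was 0.21 (0.12 to 0.30). The median over all 4597 rows was 0.00, ribosomal protein genes were at -0.14 and histone genes at 0.79. Counts per cell are shares of a fixed total here, so a lower ribosomal share leaves more for other genes, and its part in these ratios was not tested.

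Of 38 members with at least 50 counts, 30 (78.9%) had a log2 ratio above 0, beside 50.5% of all rows, and the median was 0.31. A log2 ratio of 0.5 or more was reached by 10 members (26.3%), beside 14.5% of all rows. A ratio of -0.5 or less was reached by 2 members (5.26%), beside 12.1%. Low counts alone can pass that size. Among genes with at least 300 counts, 4 of 21 members (19.0%) were at 0.5 or more, beside 5.44%, and 1 (4.76%) at -0.5 or less, beside 3.51%. Over the 3 draws 15 members reached 0.5 at least once, beside 21.4% of all rows, and 7 did so in every draw, beside 9.05%: HNRNPAB, HNRNPD, HNRNPR, HNRPDL, SNRPA1, SRSF1 and SRSF3.

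SRSF3 had 673 CPM in G2/M-rich and 425 CPM in G2/M-poor cells, a log2 ratio of 0.66 (0.41 to 0.92) that was 0.65 in barcode set 1 and 0.66 in set 2. At equal depth 54.3% of G2/M-rich and 40.9% of G2/M-poor cells had an SRSF3 count. HNRNPD had 1003 against 657 CPM, a log2 ratio of 0.61 (0.40 to 0.82). HNRPDL had 613 against 399 CPM, a log2 ratio of 0.62 (0.35 to 0.89). These 3 genes were higher in the G2/M-rich cells of both barcode sets.

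HNRNPAB had 706 against 486 CPM, a log2 ratio of 0.54 (0.29 to 0.78), and 0.80 in the draw where it was highest. HNRNPR, which has a neuronal role in axonal mRNA transport, was at 0.61 (0.08 to 1.16). SRSF1 was at 1.11 (0.34 to 1.92), on 50 against 21 counts, and SNRPA1 was at 0.96 (0.27 to 1.67), on 58 against 27 counts. The last 3 have wide intervals because they rest on few counts. HNRNPH1, SRSF10, SRSF4 and HNRNPU were past 0.5 in 2 of 3 draws, with main values of 0.85, 0.63, 0.51 and 0.37. The main intervals of SRSF10 (-0.13 to 1.42) and SRSF4 (-0.33 to 1.37) include 0.

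HNRNPA2B1 and SNRPD2, the most abundant members, had ratios smaller in size than those of the genes just named. HNRNPA2B1 had 1928 against 1562 CPM, a log2 ratio of 0.30 (0.16 to 0.44), and a count in 85.5% against 70.4% of cells at equal depth. SNRPD2 went the other way, with 1571 against 1828 CPM and a log2 ratio of -0.22 (-0.36 to -0.08), and was negative in both barcode sets. Of the 8 Sm ring genes 6 had a ratio above 0, among them SNRPD1 at 0.49 (0.28 to 0.71) and SNRPB at 0.32 (0.10 to 0.53), and SNRPD2 and SNRPN did not. HNRNPM (0.02), HNRNPC (-0.03), SRSF2 (-0.01) and SRSF11 (0.01) had ratios near 0.

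The lowest ratios were those of SNRPN and SRSF9, which were at -0.5 or less in all 3 draws, as were 5.98% of all rows. Neither was past -0.5 with cells split at the median (-0.24 and -0.39) or with the score without HMGB2 and TUBB4B (-0.27 and -0.35). SNRPN had 206 against 318 CPM, a log2 ratio of -0.62 (-0.996 to -0.256), with -0.30 in barcode set 1 and -0.93 in set 2. SRSF9 was at -0.56 (-1.63 to 0.48) on 15 against 20 counts, an interval that includes 0.

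**Figure D2:**
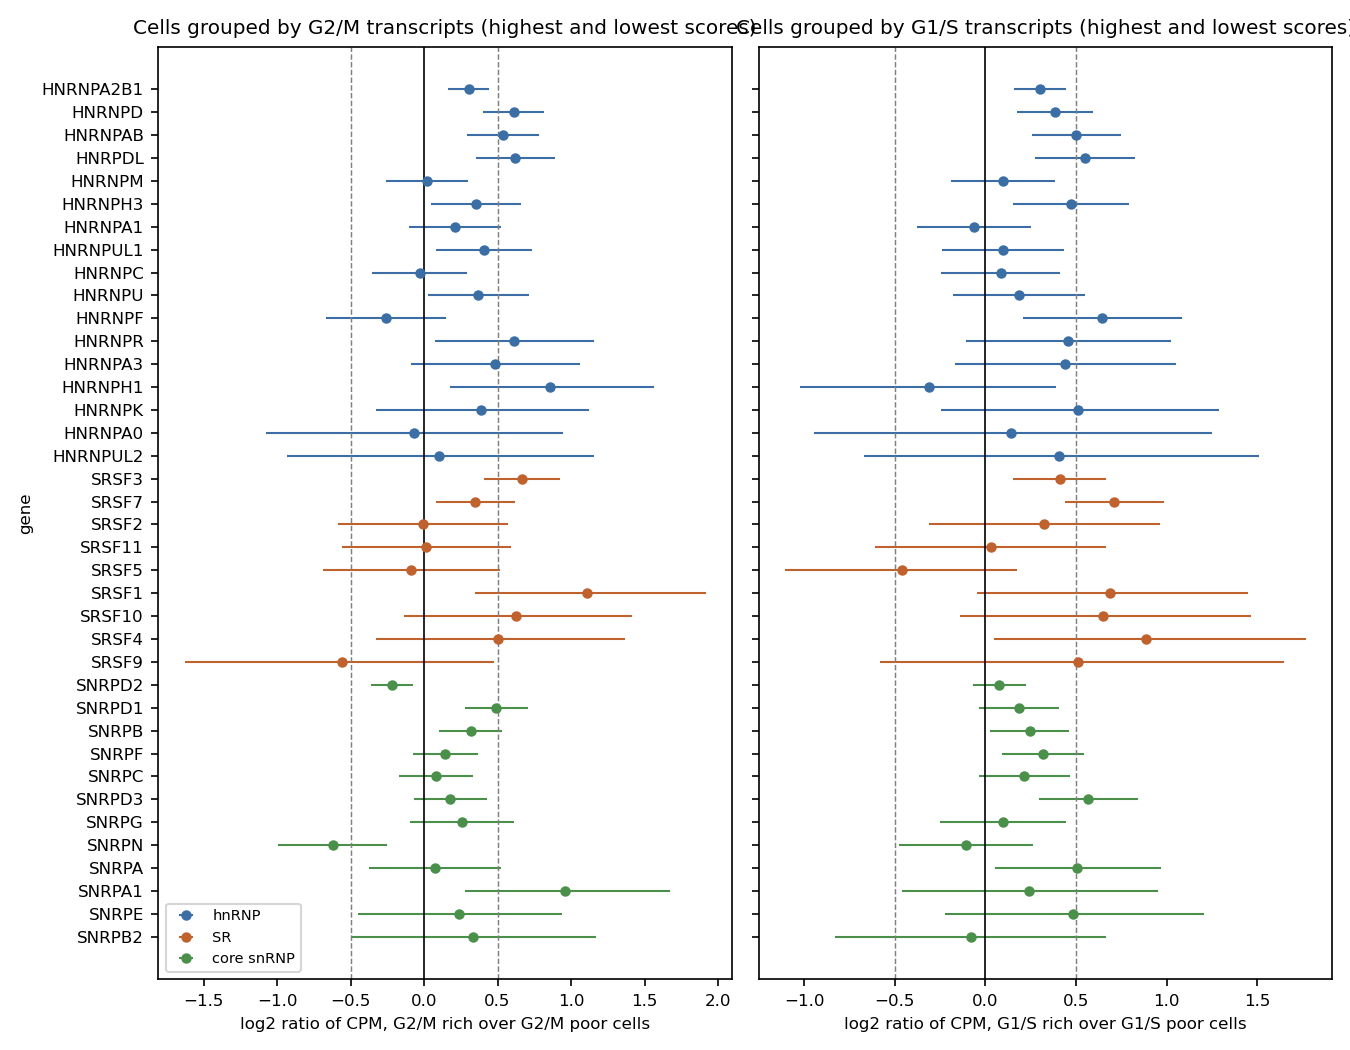
Log2 ratio of CPM between the 186 cells richest and the 186 poorest in G2/M transcripts (left) and in G1/S transcripts (right), for the 38 members with at least 50 counts, with 95% counting intervals. Dashed lines mark ratios of 0.5 and -0.5. Most points lie right of 0 in both panels, SNRPN lies left of -0.5 on the left panel only, and low-count genes have wide intervals.

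The same was done with 45 genes of DNA replication and the G1/S transition. The 186 cells with the highest sums, all at 4 or more, were G1/S-rich and the 186 with the lowest, all at 2 or fewer, G1/S-poor. Ties at the bounds were broken at random, which took 7 of the 63 cells at 4 and 28 of the 101 at 2. The groups had median totals of 2123.5 and 2078.5 counts. The hnRNP genes had 7243 against 5865 CPM, a log2 ratio of 0.30 (0.23 to 0.38). The SR genes had 1894 against 1396 CPM, a log2 ratio of 0.44 (0.29 to 0.59). The core snRNP genes had 6439 against 5578 CPM, a log2 ratio of 0.21 (0.13 to 0.28). All 3 classes were higher in both barcode sets, at 0.34 and 0.27, 0.41 and 0.45, and 0.17 and 0.25. Ribosomal protein genes were at -0.08 and histone genes at 1.40.

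Here 33 of 38 members (86.8%) were above 0, beside 50.2% of rows. In this draw 11 members (28.9%) reached 0.5, beside 12.6% of rows, and 0 were at -0.5 or less, beside 11.8%. With at least 300 counts these were 5 of 21 (23.8%) beside 4.16%, and 0 beside 3.26%. The count of 11 depends on the random draw: it was 6 in the first draw made, and only SRSF7 and SRSF4 reached 0.5 in all 3, a share near the 5.05% of all rows that did. SRSF7 had 643 against 393 CPM, a log2 ratio of 0.71 (0.44 to 0.99), and 46.8% against 35.5% of cells with a count at equal depth. SRSF4 was at 0.89 (0.05 to 1.77) on 36 against 19 counts.

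SNRPD3 had 615 against 415 CPM, a log2 ratio of 0.57 (0.30 to 0.84), with 0.46 and 0.66 in the other draws. HNRPDL was at 0.55 (0.27 to 0.83), HNRNPAB at 0.50 (0.26 to 0.75) and HNRNPF at 0.64 (0.21 to 1.09). HNRNPF was at -0.26 (-0.67 to 0.15) by the G2/M score, and at 0.23 and -0.12 in the other draws, so its sign there depends on the draw. SRSF1, SRSF10, HNRNPK, SNRPA and SRSF9 were the others at or above 0.5, with values from 0.51 to 0.69, all on fewer than 300 counts and none past 0.5 in every draw. HNRNPA2B1 was at 0.30 (0.16 to 0.44), SNRPD2 at 0.08 (-0.07 to 0.22) and SNRPN at -0.11 (-0.48 to 0.26).

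The scores overlap, since the G1/S list itself was at 0.43 between G2/M-rich and G2/M-poor cells, so cells were also placed by both. In the 97 cells poor in both lists the hnRNP sum was 4936 CPM (4657 to 5226). It was 6927 CPM (6433 to 7449) in the 42 cells rich in G1/S only, 7636 CPM (7183 to 8110) in the 54 rich in both and 7330 CPM (6883 to 7797) in the 53 rich in G2/M only. The intervals of the last 3 overlap, and all lie above that of the poor cells. The SR sum was 1247, 1815, 1979 and 1728 CPM in that order, again lowest in the cells poor in both. The core snRNP sum was 5239 CPM (4952 to 5538) in cells poor in both and 6756, 6456 and 6185 CPM in the other sets, whose intervals also overlap each other.

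**Figure D3:**
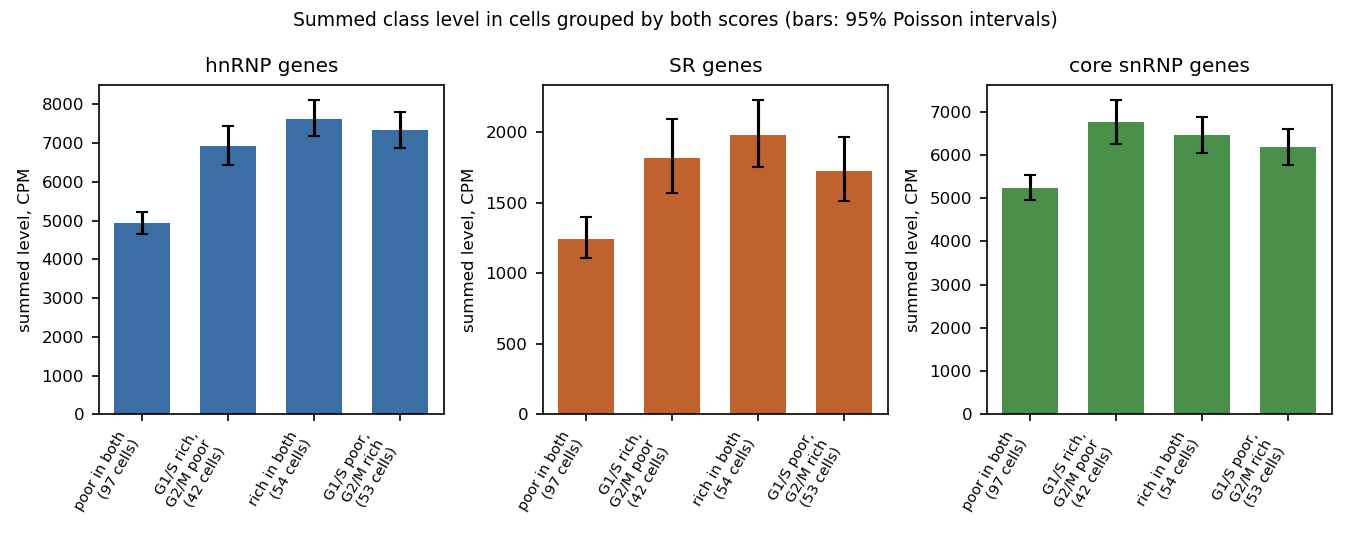
Summed level in CPM of each class in cells poor or rich in G1/S and G2/M transcripts, with axes starting at 0 and 95% Poisson intervals. The 97 cells poor in both lists have the lowest bar in each panel.

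Single genes are given in the same sets of cells. HNRNPAB had 345 CPM (275 to 429) in cells poor in both and 779, 770 and 707 CPM in the sets rich in G1/S only, in both and in G2/M only. SNRPD3 had 354, 694, 662 and 532 CPM in that order. SRSF3 had 371, 504, 770 and 693 CPM. For each of these 3 genes the intervals of the 3 rich sets overlap. SNRPN had 350 and 380 CPM in the G2/M-poor sets and 202 and 197 CPM in the G2/M-rich sets, with overlapping intervals. SNRPD2 had 1786, 1881, 1684 and 1481 CPM, and the intervals of all 4 overlap.

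Covariation was read across the same 560 cells at 1100 counts. Of 983 rows with a thinned mean of at least 0.2, 21 were members: 10 hnRNP, 2 SR and 9 core snRNP genes. The mean Spearman rho over their 210 pairs was 0.017, beside 0.0002 over all pairs of rows. Of these pairs 138 (65.7%) were positive, beside 49.8% of all pairs, and 27 (12.9%) exceeded the 95th percentile of all pairs, 0.074. The mean was 0.024 within hnRNP and 0.001 within core snRNP genes, and the single pair SRSF3 and SRSF7 had 0.045. The highest pair was HNRNPUL1 with SNRPB at 0.155 and the lowest HNRNPA2B1 with SNRPN at -0.119. Values of this size in sparse counts are weak, and no pair was read as a finding.

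**Figure D4:**
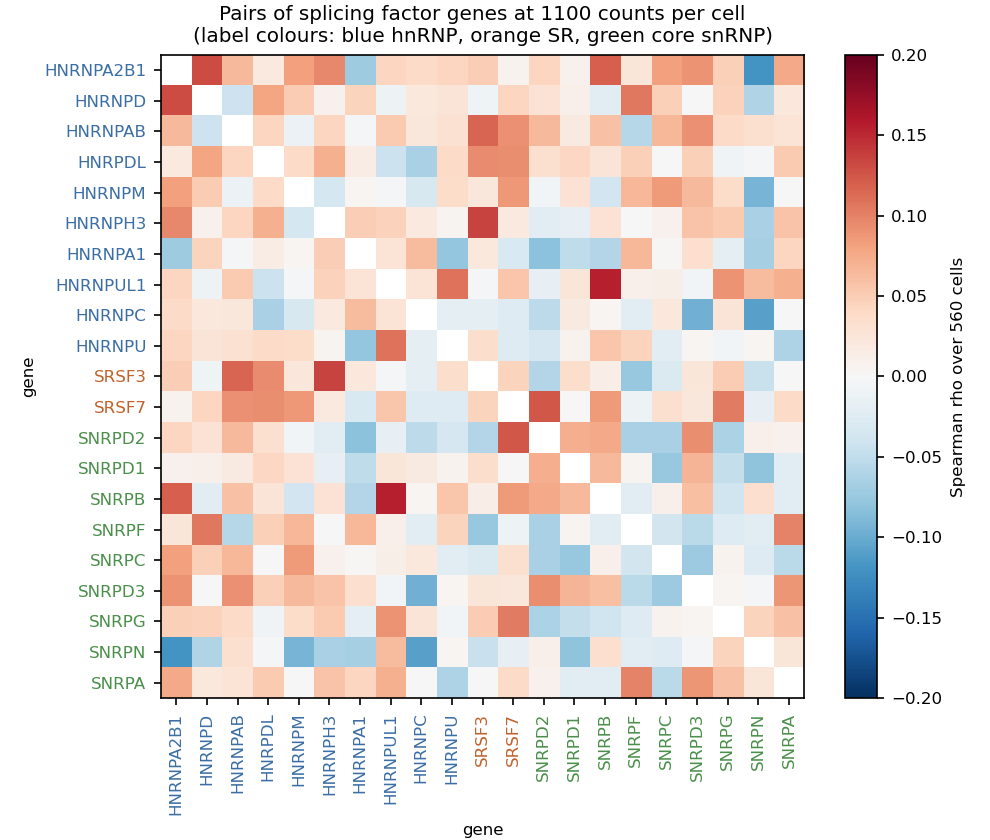
Spearman rho between the 21 members with a thinned mean of at least 0.2, over 560 cells thinned to 1100 counts, on a colour scale from -0.20 to 0.20. Most squares are pale, and the darkest off the diagonal is HNRNPUL1 with SNRPB at 0.155.

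Class sums gave more counts per cell. The 560 cells were at equal depth, and their plates are not known. Over these cells rho was 0.175 between hnRNP and core snRNP sums, 0.130 between hnRNP and SR sums and 0.076 between SR and core snRNP sums. The last was 0.164 in barcode set 1 and -0.013 in set 2. With the G1/S sum, rho was 0.228 for hnRNP, 0.142 for SR and 0.162 for core snRNP genes. With the G2/M sum it was 0.247, 0.182 and 0.070. With the ribosomal protein sum it was -0.178, -0.134 and 0.005, and with total counts before thinning -0.011, 0.079 and -0.065.

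The outside genes whose counts ran closest to the hnRNP sum, of 961 rows, were TUBA1B (0.314), an alpha tubulin, H2AFZ (0.241), a histone variant, HMGB2 (0.229), a chromatin protein of the G2/M list, NOP56 (0.146), a snoRNP protein, and RUVBL1 (0.141), an AAA ATPase. The 95th percentile over those rows was 0.098. Closest to the SR sum were TUBA1B (0.159), HMGB2 (0.145), NASP (0.142), TUBB4B (0.134) and LMNB2 (0.134). Closest to the core snRNP sum were D4S234E (0.190), TUBA1B (0.190), MIF (0.170), SRP19 (0.162) and ENY2 (0.159).

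From the other side, the 186 cells with the most member counts (all at 18 or more) were set against the 186 with the fewest (all at 13 or fewer). Ties were again broken at random, which took 35 of the 43 cells at 18 and 38 of the 41 at 13. The G1/S list had 3902 against 2427 CPM, a log2 ratio of 0.69 (0.58 to 0.79), and the G2/M list 9930 against 7499 CPM, a log2 ratio of 0.41 (0.34 to 0.47). The median log2 ratio over all 4599 rows was 0.02, and the share of rows above 0 is not given here. Over the genes with at least 50 counts the median was 0.48 for the G1/S list and 0.46 for the G2/M list. Of 27 such G1/S genes 25 were above 0 and 13 (48.1%) reached 0.5, beside 14.5% of all rows (7.69% of rows with at least 300 counts). NASP, a histone chaperone, was at 1.11 (0.79 to 1.45), TYMS, which makes thymidylate, at 1.14 (0.75 to 1.55) and the replicative helicase gene MCM7 at 0.84 (0.47 to 1.21). Of 41 G2/M genes 36 were above 0, 17 reached 0.5 and 1, CENPA, was at -0.5 or less, beside 13.8% of all rows (6.54% of rows with at least 300 counts). HMGB2 was at 0.73 (0.57 to 0.89) and PLK1, a mitotic kinase, at 0.89 (0.44 to 1.34). Histone genes were at 0.40 and ribosomal protein genes at -0.08. The size for the G1/S list moved between draws, to 0.45 in the first.

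The extremes of that comparison were low-count rows. The 10 highest ratios were those of NSL1 (2.96), CRABP1 (2.82), CCDC102A (2.38), ISG20L2 (2.26), FXYD6 (2.02), GCG (1.97), G3BP2 (1.85), FUBP1 (1.83), NPY (1.83) and IDH2 (1.82). For CRABP1 and GCG 52.3% and 59.5% of all counts lay in 10 cells. The 5 lowest were OLFML2A (-2.70), EPAS1 (-2.25), PPIC (-2.15), C1QTNF1 (-1.96) and HERPUD1 (-1.93).

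Splicing genes outside the name rule were read from lists, by the same G2/M groups and in the same draw. The Prp19 complex, catalytic and exon junction genes had a log2 ratio of 0.38 (0.28 to 0.49), with 8 of 22 at 0.5 or more and 0 at -0.5 or less, beside 14.5% and 12.1% of all rows. Those shares are also the background of the counts that follow for this score, and the smaller counts lie near them. These 8 included the exon junction genes RBM8A at 0.72, MAGOH at 1.07 and RNPS1 at 0.62, and the export genes DDX39A at 1.10 and ALYREF at 0.64, with BCAS2, PPIL1 and PRPF18 between 0.61 and 0.79. The U2 and SF3 genes were at 0.22 (0.12 to 0.32), with 3 of 14 past 0.5: PUF60 at 0.76, SF3A1 at 0.56 and DDX46 at 0.55. The U1, U5 and tri-snRNP genes were at 0.13 (0.01 to 0.24), with 3 of 16 past 0.5: SART1 at 0.82, PRPF4 at 0.60 and DDX23 at 0.57. Their list also holds SNRNP25, SNRNP35 and SNRNP48, which belong to other particles. LSm genes were at 0.22 (0.07 to 0.36), with 2 of 8 past 0.5, LSM6 at 0.83 and LSM5 at 0.56. Most of their proteins form the ring on U6 or a decay complex, but those of LSM10 and LSM11 belong to neither.

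The SR-related and SR kinase genes were at 0.18 (0.00 to 0.35), with PPIG at 0.75, SRRM1 at 0.66, TNPO3 at 0.66 and the joint PNISR row at -0.69 among 14. The hnRNP relatives under other names were at 0.20 (0.11 to 0.28), with PTBP1 at 0.51, SFPQ at 0.62 and MATR3 at 1.10 past 0.5 among 18. Their most abundant genes were the cold-inducible RBM3 at 985 CPM, PCBP2 at 727 CPM and PCBP1 at 525 CPM. Genes for assembly of the Sm ring, such as STRAP at 162 CPM, were at -0.09 (-0.31 to 0.12), with 0 of 9 higher and 2 lower, CLNS1A at -0.78 and the SMN2 row, a near-identical copy of SMN1, at -0.63, counts near the background. By the G1/S score the assembly genes were at -0.15 (-0.37 to 0.07). Of 25 tissue-restricted regulators 13 had 0 counts, among them the neuronal NOVA1, RBFOX3 and SRRM4 and the epithelial ESRP1. RBFOX2 was highest at 86.5 CPM. As a list they were at 0.12 (-0.20 to 0.45) by the G2/M score. Of the 4 with at least 50 counts, 2 were at 0.5 or more and 1 was at -0.5 or less, RBFOX2 at -0.78 (-1.41 to -0.17).

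By the G1/S score the U2 and SF3 genes were at 0.26 (0.16 to 0.37), the Prp19 complex, catalytic and exon junction genes at 0.25 (0.15 to 0.36), LSm genes at 0.19 (0.04 to 0.34), U1, U5 and tri-snRNP genes at 0.16 (0.04 to 0.28), SR-related genes at 0.16 (-0.03 to 0.35) and hnRNP relatives at 0.10 (0.01 to 0.18). In this draw 1 of 14 U2 and SF3 genes, 4 of 22 genes of the Prp19 list and 0 of 8 LSm genes reached 0.5. So did 5 of 16 U1, U5 and tri-snRNP genes, 4 of 14 SR-related genes, 3 of 18 hnRNP relatives and 2 of 9 assembly genes. The share of all rows was 12.6%. At -0.5 or less were 3 genes of the Prp19 list, 1 SR-related gene and 3 assembly genes, beside 11.8% of all rows. Genes past 0.5 by this score with intervals above 0 included BUD31 (0.72), PRPF19 (0.55), TRA2B (1.13), SNRNP70 (0.82), DDX23 (0.66), KHDRBS1 (0.66) and the SMN2 row (1.41). Those past -0.5 with intervals below 0 were SCAF11 (-1.22), PRMT5 (-1.28), SNUPN (-0.75) and CWC15 (-0.70).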

How the data were processed

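Single SK-N-AS cells were measured with MARS-seq. The deposited values are raw whole counts for each gene in each cell. The submitters' processing notes name Bowtie2 2.1.0 and hg19. Nothing on the counter, the annotation, any cell filter or whether a count is a molecule or a read is given in the sources used here. An unknown row with 2 counts (0.00013%) was left out. Work was done in Python 3.11.15 with numpy 2.4.6, scipy 1.17.1 and pandas 2.3.3. Intervals are at 95%: exact Poisson, Clopper-Pearson or conditional binomial. With 1 pooled sample no p-value was made. A ratio of 0.5 in log2 size among rows with at least 50 counts was named, and of the lists the genes past it and the 3 most abundant, though not all are reported here. No doublet caller was run, since cells were sorted singly. Members and lists were chosen with earlier results of these data known. The code was tested on simulated data with known ratios.

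The random thinning was changed once after results had been seen. The first draw used 1 random stream over all cells, so that leaving out a cell also redrew the others. It was replaced by a stream for each cell, and both draws and a further one are reported. Other alternatives changed the depth of thinning, the split, the barcode set, the deepest cell, count minimums and the G2/M list.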

Additional observations from a re-analysis of the deposited data

How the results depend on the processing

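There were 1204 alternative values. Of these, 161 of the main summaries and 954 of the single-gene values stayed within the interval or within 1.5 times of the main value. Another 55 main summaries and 30 single-gene values moved further, and 4 single-gene values changed sign. Counts of genes past 0.5 were compared as numbers, so an unchanged count can hold other genes. In the main setting 11 members were higher by G1/S. Of the members higher in other settings, 6 of 10 at 1500 counts, 6 of 14 in barcode set 2 and 5 of 8 in another draw were among them. The deepest cell lay in neither group of any score. Leaving it out could not change the ratios between groups, and those values are counted among the unchanged. The first random draw gave 6 members higher by the G1/S score, 0.45 for the G1/S list between member-rich and member-poor cells, and a mean rho of 0.131 for SR and 0.0062 for core snRNP pairs. Another draw, also at 1100 counts, gave 1 member lower by G1/S, 0.53 for that list, and mean rho of 0.014, 0.117 and 0.015 for hnRNP, SR and core snRNP pairs. SRSF9 was at -0.22 there and at -0.016 in barcode set 1, beside 0.51.

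At 800 counts, 1 member was lower by G2/M, and 5 were higher and 1 lower by G1/S. Of those 5, only 1 was among the 11 of the main setting. The core snRNP ratio by G1/S was 0.12, the G1/S list 0.48 and core snRNP rho 0.0057. At 1500 counts, 1 member was lower by each score, the list was at 0.54, and mean rho was 0.035 for members, 0.041, 0.081 and 0.034 by class. With cells split at the median, 1 member was lower by G2/M, HNRNPA0 at -0.50 in place of SNRPN and SRSF9, and 5 were higher by G1/S, the G1/S and G2/M lists were at 0.50 and 0.32, and 423 and 343 rows lay past 0.5, beside 668 and 636. With at least 20 counts per row these were 1364 and 1287, and 1 member was lower by G1/S.

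In barcode set 1 alone the SR sum was 1573 CPM, the core snRNP ratio by G2/M 0.18, members lower 0 by G2/M and 3 by G1/S, the G2/M list 0.32, and rho 0.013 for hnRNP and -0.017 for core snRNP pairs. In set 2 they were 1736 CPM, -0.013, 1 lower by G1/S, 0.52 and 0.017, with 963 rows lower and an hnRNP ratio by G1/S of 0.22. HNRNPK and SRSF1, at 0.51 and 0.69 by G1/S, were at -0.010 and -0.043 there. The mean of CPM per cell gave 1 member lower by G1/S and 0.58 for the G1/S list. The G2/M list without HMGB2 and TUBB4B gave 0 members lower, and the core snRNP ratio without SNRPD2 was 0.21. Rows with a thinned mean of at least 0.1 gave rho of -0.010 for SR and 0.0050 for core snRNP pairs, and of at least 0.5 gave 0.031 for members, 0.049 for hnRNP and 0.0041 for core snRNP pairs. Pearson's r gave -0.00076 for core snRNP pairs. The cause of these shifts was not tested.

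The first draw, runs of columns, classes without their leading gene, the 300-count minimum and cells placed by both scores were chosen after seeing the data. No paired analysis was possible because there is 1 group and the columns carry no sample. At 1100 counts a cell holds a median of 2 SR counts, which limits every value per cell for that class.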
